A study of Mus musculus with 22 samples.

Results

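The MHC class II presentation genes were followed through the RNA sequencing of sorted mouse lung epithelial cells (ECs). The set holds 10 of the 54373 genes listed in the count tables. It was chosen by name, not by a rule on measured values, though with earlier results of these data known. It comprises H2-Aa, H2-Ab1 and H2-Eb1, Cd74, Ciita, H2-DMa, H2-DMb1 and H2-DMb2, and H2-Oa and H2-Ob. All 10 symbols had 1 Ensembl identifier in both tables. They are set beside Ptprc, which encodes CD45, because alveolar type 2 cells and leukocytes both express class II genes.

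ECs came from WT mice of the C57BL/6 strain and from mice labelled AhR-/- or CYP1B1-/-, described in the study as backcrossed to C57BL/6. Mice of both sexes and over 7 weeks of age were used, and nothing in the labels says whether libraries came from separate animals, so that p-values measure the spread between these libraries. Lungs were digested and live EpCAM+ cells without CD45 and CD31 were sorted. At steady state there were 4 WT libraries, 3 labelled AhR-/- (replicates 1, 3 and 4) and 3 labelled CYP1B1-/- (replicates 2, 3 and 4). After house dust mite (HDM), given intranasally as extract of Dermatophagoides farinae in a sensitisation and challenge protocol, there were 4 libraries of each genotype. Steady state and HDM come as 1 table each, from different runs, and the effects of HDM and of the run cannot be told apart.

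Class II molecules are pairs of an alpha and a beta chain that carry peptides from the endosomal pathway to the surface, where CD4 T cells read them. The invariant chain Cd74 escorts new pairs and blocks their groove, H2-DM exchanges its remnant for peptide, and H2-DO restrains H2-DM. The coactivator Ciita binds no DNA itself. It docks on a complex of RFX, CREB and NF-Y proteins at conserved promoter boxes and is induced by interferon gamma in many cells. Dendritic cells, B cells and macrophages are the professional class II cells, and in the lung alveolar type 2 cells also carry class II at rest.

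In the mm10 annotation, 8 of the 10 genes lie on chromosome 17, from H2-Oa (34092340 to 34095234, plus strand) through H2-DMa (34119541 to 34139101), H2-DMb2 (34143307 to 34151555), H2-DMb1 (34153072 to 34160230), H2-Ob (34238903 to 34254414), H2-Ab1 (34257689 to 34269419) and H2-Aa (34282744 to 34287823, minus strand) to H2-Eb1 (34305867 to 34316674). Ciita and Cd74 lie elsewhere, Ciita on chromosome 16 (10480059 to 10528418). RefSeq promoters of build GRCm38.p6 were matched for 7 of the 10 genes. The 250 bases before the start were searched on both strands for the letters TGATTGG of the Y box, which NF-Y binds, and for AACNNATG, chosen after the sequences were seen as the letters shared by several X boxes. TGATTGG was found in 6 of the 7 genes and in 7.23% of all 32851 promoters, and AACNNATG in 4 of the 7 genes and in 7.71% of all. The pair in this order within 40 bases was found in 14 promoters (0.0426%), 4 of them members and 1 that of H2-Eb2, a further class II beta chain gene. H2-DMa had neither set of letters in this window. The stretches that hold TGATTGG are shown for the 6 genes that have it, 4 of which also have AACNNATG upstream of it, with both in capitals where present:
H2-Aa, chr17:34287863-34287915, minus strand: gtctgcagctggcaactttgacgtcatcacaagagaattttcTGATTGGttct
H2-Eb1, chr17:34305764-34305816, plus strand: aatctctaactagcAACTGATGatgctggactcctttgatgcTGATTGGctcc
H2-DMb1, chr17:34153086-34153138, plus strand: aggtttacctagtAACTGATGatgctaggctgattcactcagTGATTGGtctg
H2-DMb2, chr17:34145115-34145167, plus strand: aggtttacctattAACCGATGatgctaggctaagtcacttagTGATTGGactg
H2-Oa, chr17:34092292-34092344, plus strand: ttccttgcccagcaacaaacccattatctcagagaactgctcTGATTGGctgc
H2-Ob, chr17:34238804-34238856, plus strand: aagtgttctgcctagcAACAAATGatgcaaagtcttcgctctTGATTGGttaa
TGATTGG began 45 to 92 bases before the start in these genes, and matches of letters describe the sequence and do not show binding.

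Total counts per library ranged from 10476829 to 17707000 at steady state and from 9654825 to 17878442 after HDM, of which 7218689 to 14120921 and 1180756 to 16447855 were protein-coding counts outside 6 predicted genes that took most of some libraries. The targeted genes did not fall in the libraries labelled with their knockout. Ahr stood at 15.5 to 20.1 CPM (counts scaled to a common library size) in the steady-state libraries labelled AhR-/- against 6.38 to 12.3 in WT, and at 12.8 to 25.5 against 9.62 to 20.0 after HDM. Cyp1b1 stood at 3.62 to 5.89 CPM in the steady-state libraries labelled CYP1B1-/- against 0.644 to 1.91 in WT, and at 4.98 to 13.5 against 0.897 to 2.31 after HDM. Counts over all exons would still include a transcript that lacks some of them. After HDM, replicates 3 and 4 labelled AhR-/- stood apart. They carried the Y-linked Ddx3y at 67.3 and 69.6 CPM, as all 10 steady-state libraries did (19.7 to 99.8), while it was at most 0.0859 in the other 10 HDM libraries. Their Ager, an alveolar type 1 transcript, was at 10375 and 14492 CPM, within the steady-state range of 7036 to 17157 and above the other HDM libraries (259.9 to 6905). Whether these 2 libraries were exchanged or came from mice without HDM was not tested, and each value of the AhR-/- HDM group depends on their label. Since Y-linked reads come from male mice, state and sex cannot be told apart either in WT and CYP1B1-/-. In AhR-/- only replicates 3 and 4 after HDM share such reads with steady state, and their label is in doubt. AhR-/- against WT after HDM sets 2 libraries with and 2 without such reads against 4 without. Of the predicted genes, Gm10800 took 62.7 to 71.9% of the total counts in 5 HDM libraries, WT replicate 2, AhR-/- replicates 3 and 4 and CYP1B1-/- replicates 1 and 2, and 0.0082 to 47.1% in the other 7. Within each genotype these were the HDM libraries with the lowest mean log2 CPM of H2-Aa, H2-Ab1, H2-Eb1 and Cd74, and the part of this share in the class II levels was not tested beyond the fit without the predicted genes. Without AhR-/- replicates 3 and 4, 0 of 15713 genes were called between AhR-/- and WT after HDM, so that each edgeR call given below for that comparison, of a member or of a listed gene, is lost without them. The epithelial label was read from 5 general epithelial genes, all above 1 CPM on average in each group. Epcam was at 86.2 to 287 CPM at steady state and at 68.2 to 312 after HDM, while the other 4 fell after HDM in WT and in CYP1B1-/-, as given with the epithelial lists below. Ptprc was counted in every library despite the sort against CD45.

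At steady state, class II transcripts were detected at low level in every library, led by the invariant chain. Per kilobase of exon, WT libraries had 65.3 CPM of Cd74 on average, from 42.1 to 115. The chains followed, with H2-Ab1 at 12.3 ± 10.0 (SD, n = 4), H2-Eb1 at 7.49 ± 6.04 and H2-Aa at 7.18 ± 4.78 CPM per kilobase. H2-DMb1 was at 5.65 ± 0.857, H2-DMa at 1.21 ± 0.688 and H2-DMb2 at 0.968 ± 0.970 CPM per kilobase. H2-Ob, H2-Oa and Ciita closed the order at 0.358 ± 0.400, 0.218 ± 0.253 and 0.206 ± 0.102 CPM per kilobase. In this order the ranges of neighbours overlapped over the 4 WT libraries, except between Cd74 and H2-Ab1 and between H2-DMb1 and H2-DMa. H2-Oa rested on 0 to 14 counts per steady-state library, with 0 counts in CYP1B1-/- replicate 3, where up to 3 counts, or 0.152 CPM, cannot be told from 0.

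**Figure D1:**
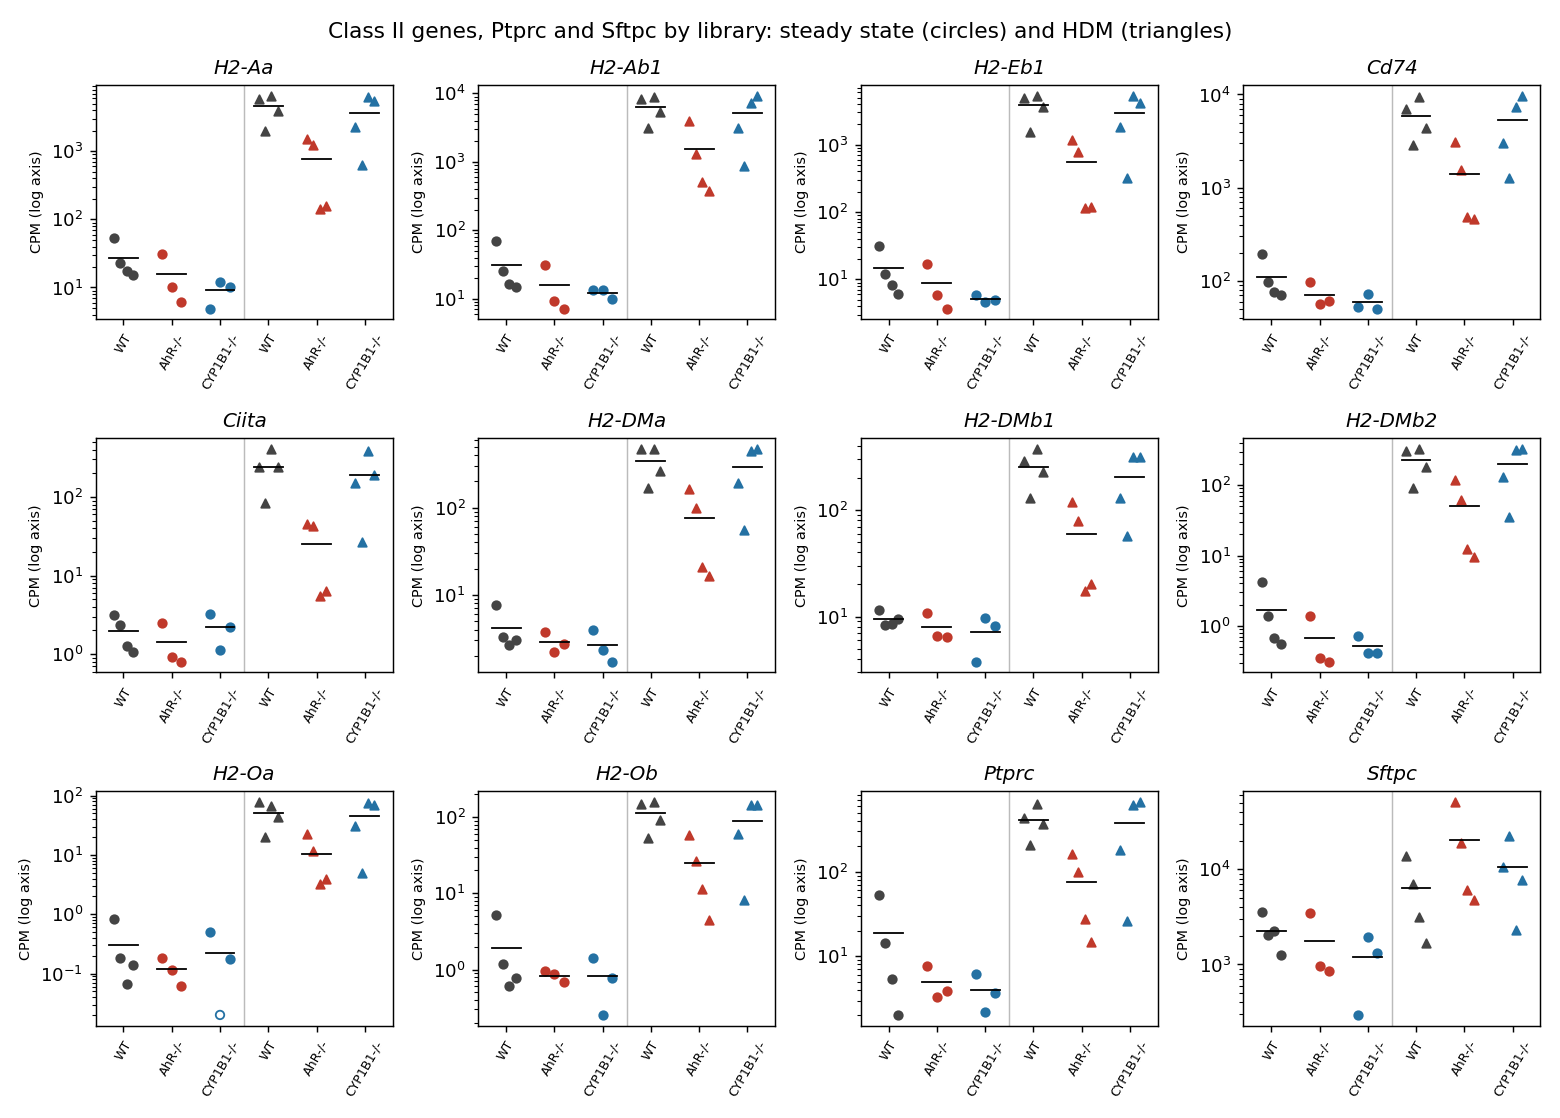
CPM of the 10 class II genes, Ptprc and Sftpc on log axes, 1 panel per gene and 1 point per library, with steady state as circles on the left, HDM as triangles on the right, genotypes as labelled and the group mean as a bar. Within each genotype all HDM libraries lie above all steady-state libraries for the 10 class II genes, and across genotypes this holds for 9, since H2-Ob in AhR-/- HDM replicate 4 (4.42 CPM) is below WT replicate 1 at steady state (5.13). The 2 lowest HDM libraries are AhR-/- replicates 3 and 4 for 9 of the 10. An open circle marks the library with 0 H2-Oa counts, drawn at the foot of the axis.

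After HDM, the whole set was far higher. H2-Ab1 was at 69.6, 25.3, 16.7 and 15.1 CPM in the 4 WT libraries at steady state and at 8189, 3129.5, 8851 and 5325 CPM after HDM. In the libraries labelled AhR-/- it was at 31.4, 9.36 and 7.20 CPM at steady state and at 3967, 1282, 509 and 369.7 after HDM. In those labelled CYP1B1-/- it was at 13.5, 13.3 and 10.0 CPM and at 3169.5, 871, 7311 and 9285. The lowest HDM library was above the highest steady-state library within each genotype, and HDM libraries ranged from 369.7 to 9285. On the log2 scale H2-Ab1 rose by 7.65 in WT (SE 0.97, adjusted p = 7.97e-06), by 6.58 in AhR-/- (SE 1.05, adjusted p = 0.00045) and by 8.71 in CYP1B1-/- (SE 1.16, adjusted p = 1.58e-05). These come from the quasi-likelihood test of edgeR, with p-values adjusted by Benjamini-Hochberg over the 16639 genes of the fit to both tables. Comparisons of genotypes used the same test within a table, adjusted over 15547 genes at steady state and 14161 after HDM.

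All 10 genes rose in all 3 genotypes by the same edgeR test at an adjusted p of at most 0.05. Of all genes tested, 19% were called higher in WT, 10.6% in AhR-/- and 15.5% in CYP1B1-/-. The log2 fold changes spanned 4.75 (H2-DMb1) to 8.04 (H2-Eb1) in WT, with a median of 7.01 against -0.11 over all genes. They spanned 2.91 (H2-DMb1) to 6.58 (H2-Ab1) with a median of 5.26 in AhR-/-, and 4.82 (H2-DMb1) to 9.14 (H2-Eb1) with a median of 7.28 in CYP1B1-/-. All 10 genes had groups that did not overlap in each genotype, as had 17.7%, 12.7% and 14.2% of all genes in the higher direction. Without AhR-/- replicates 3 and 4, all 10 still rose in that genotype, with a median log2 fold change of 6.10. In bulk samples such as these, more cells of a type and more RNA per cell cannot be told apart.

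The other chains moved with H2-Ab1. H2-Aa, the partner of H2-Ab1, was at 15.2 to 54.1 CPM in WT at steady state and at 1993 to 6600.1 after HDM. H2-Eb1, the beta chain of the other isotype, went from 6.12 to 31.8 CPM to 1534 to 5346 in the same libraries. Its partner H2-Ea, which the C57BL/6 haplotype does not express as protein and which the annotation lists as a pseudogene, had at most 13 counts in any library.

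Cd74, the invariant chain, encoded on chromosome 18 (60803848 to 60812652, plus strand), was at 193, 98.4, 76.3 and 70.6 CPM in WT at steady state and at 6956, 2861, 9339 and 4416 CPM after HDM. In the libraries labelled AhR-/- it was at 98.2, 56.1 and 60.4 CPM at steady state and at 3066, 1548, 485 and 466 after HDM. In those labelled CYP1B1-/- it was at 53.1, 72.6 and 50.5 CPM and at 3047, 1274, 7361 and 9727. Cd74 had the highest level per kilobase in WT in both states, at 3510 ± 1698 CPM per kilobase after HDM (SD, n = 4), where its range overlapped that of H2-Ab1 at 2482 ± 1032. Its log2 fold change in WT was 5.75 (SE 0.74), smaller than those of the 3 chain genes (7.40 to 8.04). The difference between these fold changes was not tested.

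Ciita, the coactivator, was at 3.16, 2.35, 1.29 and 1.06 CPM in WT at steady state and at 238, 83.7, 409.8 and 243 CPM after HDM. In the libraries labelled AhR-/- it was at 2.52, 0.919 and 0.800 CPM and at 45.0, 43.3, 5.46 and 6.36. In those labelled CYP1B1-/- it was at 3.26, 1.12 and 2.24 CPM and at 151, 26.5, 386 and 189. The 2 lowest HDM values, in AhR-/- replicates 3 and 4, rested on 12 and 36 counts and lay close to the steady-state range. Ciita rose by log2 fold changes of 6.95 in WT, 4.18 in AhR-/- and 6.42 in CYP1B1-/- (adjusted p = 9.88e-06, 0.00359 and 6.24e-05, edgeR).

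Among the editors of the groove, H2-DMb1 behaved least like the rest. It was at 11.5, 8.40, 8.53 and 9.57 CPM in WT at steady state, with the smallest relative spread of the set, and at 288, 131, 377 and 229 CPM after HDM. H2-DMa rose from 2.64 to 7.70 CPM to 166 to 473 and H2-DMb2 from 0.552 to 4.18 CPM to 92.4 to 328 in WT. H2-DMb1 had the smallest fold change of the 10 genes in each genotype, while H2-DMb2 had log2 fold changes of 7.06, 6.23 and 8.64. The 2 genes are near copies, with 22.7% of the 50-base stretches of H2-DMb1 and 21.2% of those of H2-DMb2 also found in the other, so their counts are uncertain by the reads such stretches take. Exons of H2-DMa share 10.4% of their bases with Brd2, a gene of the other strand, and those of H2-Oa overlap the antisense gene BC051537 over 22.8%, and the use of strand in counting is not given in the sources used here. H2-Oa and H2-Ob, the alpha and beta chains of the restraining pair, were at 20.3 to 78.3 and 53.5 to 159 CPM in WT after HDM, and the steady-state side of the H2-Oa log2 fold change of 7.37 rested on 21 counts over 4 WT libraries.

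**Figure D2:**
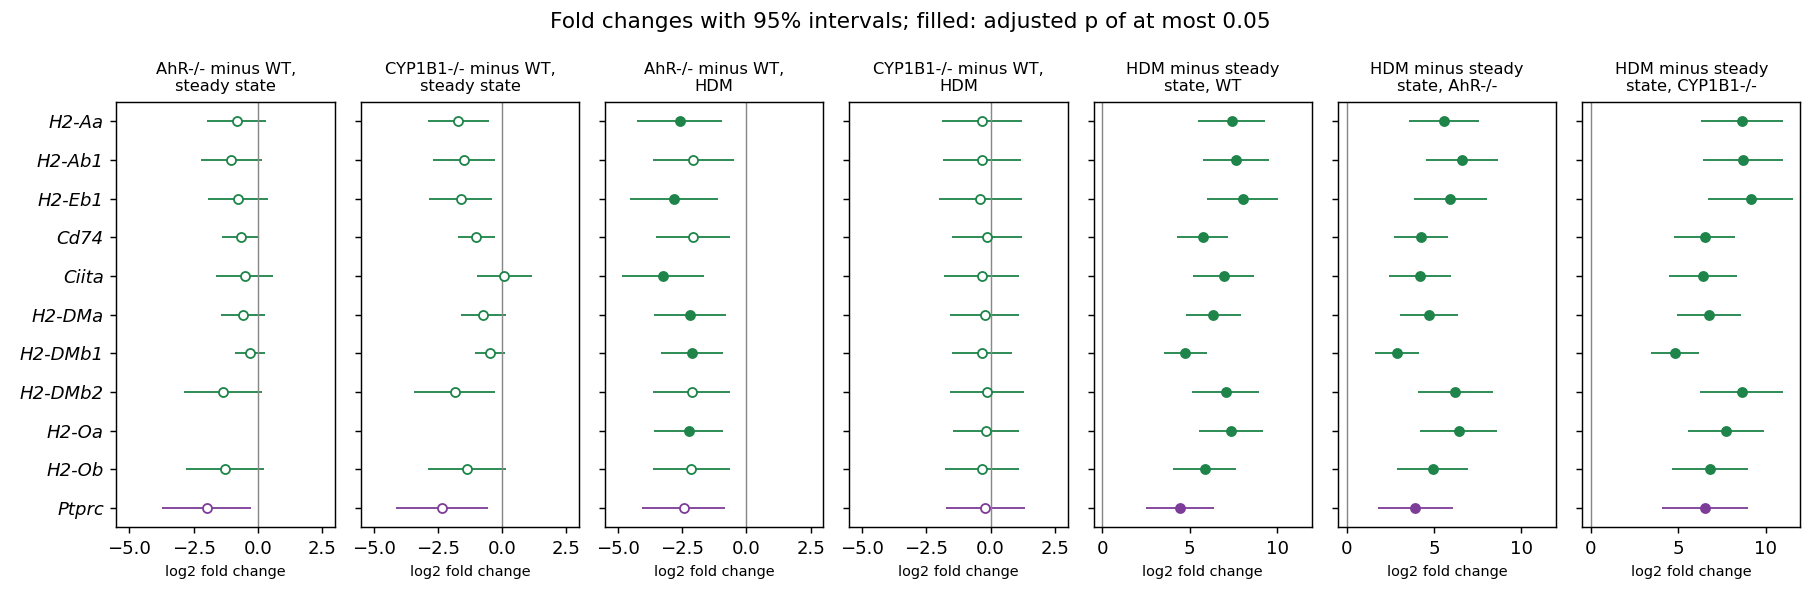
Log2 fold changes (points) of the class II genes and Ptprc in 7 comparisons, with intervals from the standard error as lines and filled points where edgeR gave an adjusted p of at most 0.05. After HDM, 6 class II genes were called lower in AhR-/- than in WT, and all 10 were called higher after HDM in each genotype. H2-Oa was not tested in the steady-state table.

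The genotype comparison was made within each table. At steady state, 9 of the 10 genes passed the filter on low counts, and H2-Oa did not. Between the libraries labelled AhR-/- and WT, 0 of the 9 passed in edgeR (0% of all genes), and 0 reached p under 0.05 before adjustment (1.69% of all genes). The log2 fold changes spanned -1.37 (H2-DMb2) to -0.29 (H2-DMb1), all 9 negative with a median of -0.76. This median was -0.15 with 1 of the 9 positive once WT replicate 1 was left out, and -1.39 with 5 of the 9 at p under 0.05 before adjustment once AhR-/- replicate 1 was left out. The share of all genes at that level is not given for the last fit, so this count cannot be set against it. The same 0 of 9 passed with edgeR's likelihood ratio test, DESeq2 and limma voom with sample weights. Ptprc had a log2 fold change of -1.99 in this comparison (unadjusted p = 0.0446, adjusted p = 0.9999, edgeR). The 10 general leukocyte genes were all negative, with a median of -2.12 against -0.0058 over all genes.

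Between the steady-state libraries labelled CYP1B1-/- and WT, 0 of the 9 genes passed either (0.0129% of all genes), with the same 3 other tools also at 0. An unadjusted p under 0.05 was reached by 5 genes, all lower in CYP1B1-/- (3.48% of all genes), namely H2-Aa (log2 fold change -1.70), H2-Ab1 (-1.48), H2-Eb1 (-1.61), H2-DMb2 (-1.84) and Cd74 (58.7 CPM on average against 109.7 in WT). The 3 chain genes lay in all 3 libraries labelled CYP1B1-/- below all 4 WT libraries, as did 1.15% of all genes. H2-Eb1 was at 5.81, 4.61 and 4.95 CPM in CYP1B1-/- and at 31.8, 11.9, 8.40 and 6.12 in WT. Ptprc had a log2 fold change of -2.34 in the same comparison (adjusted p = 0.822, edgeR), and the 10 alveolar type 2 genes had a median of -0.84 against -0.05 over all genes. WT replicate 1 weighed on these values, and without it the log2 fold changes were -1.08 for H2-Aa, -0.69 for H2-Ab1, -0.84 for H2-Eb1, -0.82 for H2-DMb2 and -0.54 for Cd74, and none of the 9 reached p under 0.05 before adjustment. With the log2 level of Ptprc as a covariate, the log2 fold changes were -0.77 for H2-Aa, -0.33 for H2-Ab1, -0.42 for H2-Eb1 and -0.35 for Cd74.

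After HDM, the class II genes were lower in the libraries labelled AhR-/-. All 10 had a negative log2 fold change, with a median of -2.16 against 0.00 over all genes, and 6 of the 10 passed in edgeR. Of all 14161 genes tested, 22.1% were called and 12.9% were called lower. All 10 had an unadjusted p under 0.05, as had 21.4% of all genes in that direction. Ciita fell most, with a change of -3.25 (SE 0.81, adjusted p = 0.0268, edgeR). The others that fell were H2-Eb1 (-2.81, adjusted p = 0.0411), H2-Aa (-2.59, 0.0456), H2-Oa (-2.24, 0.0396), H2-DMa (-2.18, 0.0470) and H2-DMb1 (-2.11, 0.0344), all in the edgeR test. H2-Ob (-2.14, adjusted p = 0.0592), H2-DMb2 (-2.13, 0.0600), Cd74 (-2.08, 0.0558) and H2-Ab1 (-2.07, 0.0773) did not pass. In 5 genes (H2-Aa, H2-Eb1, Ciita, H2-DMa and H2-DMb1) the 4 libraries labelled AhR-/- lay below the 4 WT libraries, as in 9.91% of all genes. Ptprc, at -2.44 with an SE of 0.83, fell short of the threshold (adjusted p = 0.0519, edgeR).

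These calls rested on single libraries. The count was 0 without WT replicate 3 or 4 or AhR-/- replicate 1, 3 or 4, 1 without WT replicate 1, 4 without AhR-/- replicate 2 and 6 without WT replicate 2, where 3.97%, 15.9% and 13.3% of all genes were called lower. Where it was 0, no gene of the whole table was called. Throughout, 9 or 10 members had an unadjusted p under 0.05, as had 14.1% to 23% of all genes in that direction. The medians of the members ran from -2.91 to -1.84. Without both AhR-/- replicates 3 and 4, 0 passed and 2 had an unadjusted p under 0.05 (9.6% of all genes in that direction), with a median log2 fold change of -1.40 and 10 of 10 negative. With Ptprc as a covariate, 0 passed (0% of all genes) and 2 had an unadjusted p under 0.05 (5.7% of all genes in that direction), and the median log2 fold change was -0.55, again with 10 of 10 negative. Ciita then had the largest value in size, -1.35 (adjusted p = 0.370, edgeR), and H2-Ob the smallest, -0.13. DESeq2, the likelihood ratio test and limma voom with sample weights called all 10 genes lower, where they called 16.7%, 16.6% and 24.7% of all genes lower.

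**Figure D3:**
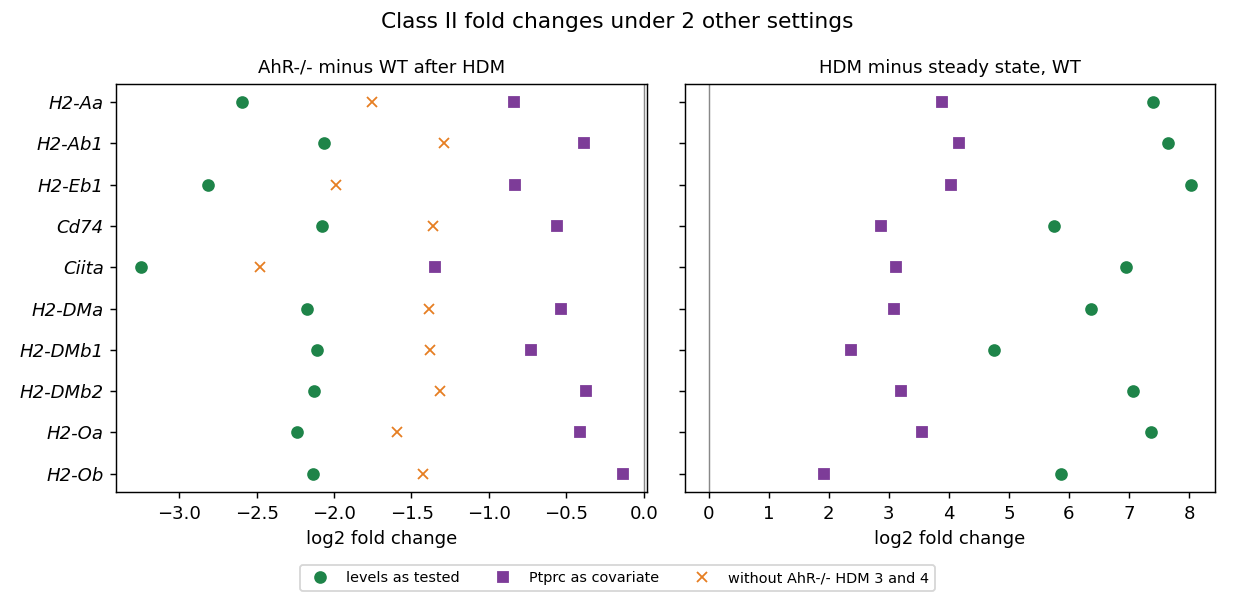
Log2 fold changes of the 10 genes as tested (circles), with Ptprc as a covariate (squares) and, on the left, without AhR-/- HDM replicates 3 and 4 (crosses), for AhR-/- minus WT after HDM (left) and HDM minus steady state in WT (right). Every value keeps its direction. The median moves from -2.16 to -0.55 on the left and from 7.01 to 3.17 on the right with the covariate.

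Between the HDM libraries labelled CYP1B1-/- and WT, 0 of the 10 members passed in edgeR (0% of all genes), and before adjustment 0 reached p under 0.05 (1.65% of all genes). DESeq2, the likelihood ratio test and limma voom also called 0. The log2 fold changes lay between -0.41 (H2-Eb1, interval -2.03 to 1.20) and -0.15 (H2-DMb2, interval -1.58 to 1.28), so these libraries do not bound a difference closely. Without CYP1B1-/- replicate 2 the median was 0.025 with 6 of 10 estimates positive, against -0.33 and 0 of 10 with it. CYP1B1-/- replicate 2 was the low library of this group for all 10 genes, with H2-Ab1 at 871 CPM against 3169.5 to 9285 in the others, and also for Ptprc, at 26.2 against 179 to 669.

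The difference of the HDM effect between genotypes was tested with an interaction term over both tables. For AhR-/-, 0 of 10 members passed in edgeR (0% of all genes), all 10 estimates were negative with a median of -1.56, and Ciita (-2.78, unadjusted p = 0.0173, adjusted p = 0.186) and H2-DMb1 (-1.84, unadjusted p = 0.0296, adjusted p = 0.225) had an unadjusted p under 0.05, as did 9.06% of all genes in that direction. DESeq2 called 1 member lower (4.14% of all genes), limma voom with sample weights 8 (17.7%) and the likelihood ratio test 0 (0.877%). Without AhR-/- HDM replicates 3 and 4 the median was -0.78 and without AhR-/- steady-state replicate 1 it was -1.01, in each case with 1 of 10 estimates positive and no member at an unadjusted p under 0.05. It was -2.29 with 7 members at an unadjusted p under 0.05 without AhR-/- HDM replicate 1, and -2.10 with 5 such members without WT steady-state replicate 1. The share of all genes at that level is not given for these fits, so the counts cannot be set against it. For CYP1B1-/-, 0 of 10 members passed in edgeR (0% of all genes) and none reached p under 0.05 before adjustment (2.3% of all genes). The edgeR median was 0.85 with 9 of 10 estimates positive, and without WT steady-state replicate 1 it was 0.15 with 5 of 10 positive. DESeq2, the likelihood ratio test and limma voom also called 0, with medians of 0.88, 0.84 and 0.28. Both interactions use the same WT libraries.

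Ptprc followed the class II genes closely after HDM. Its CPM was 436, 209, 637 and 365 in WT, 161, 99.2, 27.8 and 14.8 in AhR-/- and 179, 26.2, 614 and 669 in CYP1B1-/-. The libraries with the lowest class II levels, AhR-/- replicates 3 and 4 and CYP1B1-/- replicate 2, were also those with the lowest Ptprc. Over the 12 HDM libraries, log2 CPM of each of the 10 genes correlated with that of Ptprc, with Pearson's r of 0.946 (Ciita) to 0.992 (H2-Ob) and Spearman's rho of 0.895 to 0.972 (permutation test, adjusted p = 2e-05 for each r and at most 0.0005 for each rho over 20 relations). Without the 2 libraries farthest from the median of Ptprc, r was 0.955 to 0.991, and without AhR-/- replicates 3 and 4 it was 0.907 to 0.987. The share of all genes with such a correlation was not computed, so these values do not set the class II genes apart from others.

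At steady state the relation to Ptprc rested on few libraries. Ptprc was at 52.6, 14.5, 5.42 and 2.02 CPM in WT, 7.67, 3.33 and 3.88 in AhR-/- and 6.17, 2.18 and 3.71 in CYP1B1-/-. WT replicate 1 had the highest Ptprc and also the highest H2-Aa, H2-Ab1, H2-Eb1 and Cd74. Over the 10 libraries, r was 0.245 (H2-DMb1) to 0.921 (H2-DMb2), with 9 of 10 relations at an adjusted p of at most 0.05 by r and 6 of 10 by rho (permutation test). Without the 2 libraries farthest from the median of Ptprc, 0 of 10 passed and r was -0.288 to 0.670. The share of all genes was not computed here either.

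The ratio of each gene to Ptprc within a library was computed after the levels were seen. H2-Ab1 counted 1.33 to 7.46 times the CPM of Ptprc in the steady-state libraries (median 2.75) and 11.9 to 33.2 times in the HDM libraries (median 16.3). H2-Aa and H2-Eb1 moved likewise, from medians of 2.88 and 1.44 to 10.4 and 8.23. Cd74 had ratios of 3.68 to 34.9 (median 13.8) at steady state and 12.0 to 48.6 (median 15.8) after HDM, and H2-DMb1 had a lower median after HDM, 0.643 against 1.62. In WT, the mean log2 ratio was higher after HDM by 2.88 for H2-Eb1, 2.53 for H2-Ab1, 2.15 for H2-Aa and 1.98 for H2-DMb2, each with p = 0.02857, the smallest that an exact two-sided permutation test allows for 4 against 4. Between states in the knockout groups, 4 against 3 libraries cannot give a p under 0.05714. Of 50 such tests over 5 comparisons, 0 passed the adjustment. For any to pass, nearly all tests of 4 against 4 would have had to give their smallest p. The count therefore shows neither a difference nor its absence. Between AhR-/- and WT after HDM, the difference in log2 ratio ran from -0.79 (Ciita) to 0.52 (Cd74), 7 of 10 positive, with p of 0.0571 to 0.457 in the exact permutation test.

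With Ptprc as a covariate in edgeR, the rise after HDM was smaller. All 10 genes stayed higher in each genotype, with medians of 3.17 in WT, 2.49 in AhR-/- and 2.86 in CYP1B1-/-, and 8, 7 and 6 of the 10 passed, where 0.661%, 1.68% and 0.313% of all genes were called higher. H2-Aa, H2-Ab1, H2-Eb1, Cd74, H2-DMa and H2-DMb2 passed in all 3 genotypes, and H2-DMb1 and H2-Ob in none. In WT, H2-Ab1 had a log2 fold change of 4.16 (adjusted p = 0.00817, edgeR) and H2-DMb1 2.36 (adjusted p = 0.0979). The fit uses 1 slope on Ptprc for both states, whose Ptprc levels overlapped little (2.02 to 52.6 against 14.8 to 668.5 CPM). The rise that remains therefore does not measure a part from cells without Ptprc.

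Markers of other cell types moved with the class II genes. The 10 general leukocyte genes summed to 5.84 to 201 CPM in WT at steady state, 1381 to 4326 in WT after HDM, 127 to 873 in AhR-/- and 189 to 4157 in CYP1B1-/- after HDM. All 10 rose after HDM in each genotype (19% of all genes called higher in WT, 10.6% in AhR-/- and 15.5% in CYP1B1-/-). Of the 10, 6 fell in AhR-/- against WT after HDM (12.9% of all genes called lower). Those of lowest p were Vav1 (-3.08), Coro1a (-3.52), Tyrobp (-2.62) and Rac2 (-1.93 on the log2 scale). The sum was 147 and 127 CPM in AhR-/- replicates 3 and 4, and without these 2 libraries 0 of the 10 passed and 5 had an unadjusted p under 0.05, all lower (9.6% of all genes), with a median of -1.77. The 8 dendritic cell genes summed to 6.46 to 28.8 CPM at steady state, 710.2 to 2617 in WT, 55.8 to 361 in AhR-/- and 38.3 to 2068 in CYP1B1-/- after HDM. Flt3, a receptor that defines this lineage, was at 1.05 to 3.09 CPM at steady state, at 215, 87.5, 283 and 231 in WT after HDM, at 30.0, 13.9, 1.82 and 2.83 in AhR-/- and at 98.7, 3.17, 265 and 203 in CYP1B1-/-. Of the 8 genes, 6 fell in AhR-/- against WT (12.9% of all genes called lower). Those of lowest p were Irf8 (-4.09), Zbtb46 (-2.90), Flt3 (-4.04) and Xcr1 (-3.34, adjusted p = 0.0382, edgeR). With AhR-/- replicates 3 and 4 left out, 0 of the 8 passed and 5 had an unadjusted p under 0.05, all lower (9.6% of all genes), with a median of -2.43, and Irf8 was at -3.26 and Flt3 at -3.25.

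Genes of other blood cells rose after HDM as well. In WT, where 19% of all genes were called higher, 6 of 7 B cell genes rose (median 2.70 on the log2 scale). Those of lowest p were Cd79b, Fcer2a, Cd79a and Ms4a1. Of 10 macrophage genes, 5 rose (median 2.52), among them Ear2 and Cd68, and of 7 T and NK cell genes, 5 (median 3.40), among them Cd8a and Il7r. In AhR-/- 4, 7 and 5 genes of these lists rose (10.6% of all genes called higher), and 5, 8 and 5 without its HDM replicates 3 and 4 (15.2%). In CYP1B1-/- 5, 6 and 5 rose (15.5%), while Csf1r, the receptor of a macrophage growth factor, fell in both knockout groups. None of the 7 B cell genes passed between AhR-/- and WT after HDM (0 at an unadjusted p under 0.05, median -0.52), where 22.1% of all genes were called. Their sum was 38.3 to 140.1 CPM in WT and 16.4 to 150.2 in AhR-/-. None of the 9 macrophage genes tested passed either (1 at an unadjusted p under 0.05), and the median of the 9 was -0.53. Their most abundant gene was Chil3, a chitinase-like protein, with mean levels of 199 CPM in WT, 1156 in AhR-/- and 249 in CYP1B1-/- after HDM. The 10 macrophage genes summed to 4723 CPM in AhR-/- replicate 2 and to 137 to 836 in the other 11 HDM libraries. Marco, an alveolar macrophage receptor, was at 0 to 5.58 CPM in the HDM libraries. Of the 6 T and NK cell genes tested, Cd8a, a T cell coreceptor (-1.55), and Il7r, the interleukin 7 receptor (-1.75), fell, where 12.9% of all genes were called lower. Without AhR-/- replicates 3 and 4, 0 genes of these 3 lists passed and the B cell median was -0.20. Chil3 (3.53), Marco (2.91) and the B cell gene Fcer2a (1.19) then had an unadjusted p under 0.05, all higher (10.3% of all genes). The defining T cell gene Cd3e was at 0 to 2.28 CPM after HDM.

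Epithelial transcripts moved in other ways. The 10 alveolar type 2 genes, led by Sftpc, summed to 878 to 5587 CPM at steady state and 5014 to 74990.0 after HDM. After HDM, 6 of the 10 rose in WT, 8 in AhR-/- and 9 in CYP1B1-/- (19%, 10.6% and 15.5% of all genes), and 0 differed between AhR-/- and WT (0 at an unadjusted p under 0.05, median 0.37). That median was 1.22 without AhR-/- replicates 3 and 4, with 5 of the 10 at an unadjusted p under 0.05, all higher. Of the 7 alveolar type 1 genes, 6 fell after HDM in WT, 0 in AhR-/- and 7 in CYP1B1-/-, where 19.4%, 10.1% and 17.9% of all genes were called lower. All 7 had a positive log2 fold change between AhR-/- and WT after HDM (median 2.02), 5 had an unadjusted p under 0.05 and Akap5 rose (2.11, adjusted p = 0.0403, edgeR), and without AhR-/- replicates 3 and 4 the median was 1.01 with 0 at an unadjusted p under 0.05. Their sum in the HDM libraries labelled AhR-/- was 9557, 3256, 14540 and 19110 CPM, against 21820 to 25250 at steady state. In that genotype 5 of the 7 lay below all steady-state libraries and had an unadjusted p under 0.05, and without replicates 3 and 4, 2 of the 7 fell. The 5 general epithelial genes summed to 1176 to 1972 CPM in WT at steady state and to 489 to 798 after HDM. Of these, Cdh1, Krt8, Krt18 and Nkx2-1 fell after HDM in WT (median of the 5 -1.61) and in CYP1B1-/- (-1.41), and 1 of the 5 fell in AhR-/- (-0.66). The keratin Krt18 (1.86) and the transcription factor Nkx2-1 (2.21) were higher in AhR-/- than in WT after HDM, and without AhR-/- replicates 3 and 4 neither passed (1.76 and 2.55). The part of these cell types in the class II levels was not tested, and the values with Ptprc do not measure it.

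**Figure D4:**
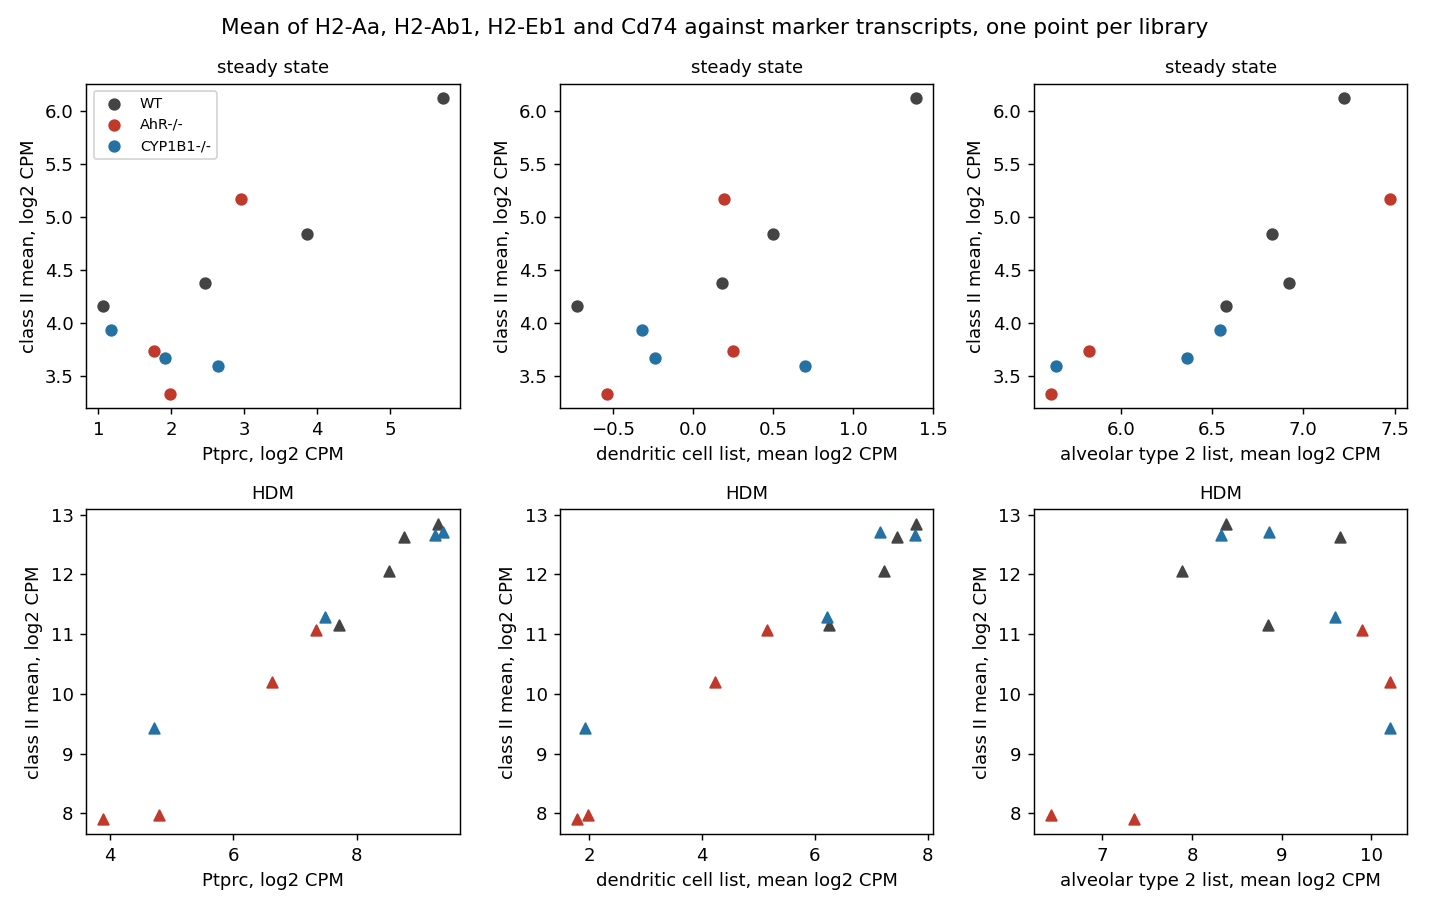
Mean log2 CPM of H2-Aa, H2-Ab1, H2-Eb1 and Cd74 (vertical) against log2 CPM of Ptprc, the mean of the dendritic cell genes and the mean of the alveolar type 2 genes (horizontal), with 1 point per library, colours for genotypes, steady state above and HDM below. At steady state rho is 0.964 in the alveolar type 2 panel and 0.382 in the dendritic cell panel, and after HDM rho is 0.014 and 0.944.

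The mean of the 4 main genes H2-Aa, H2-Ab1, H2-Eb1 and Cd74 was set against these lists after the levels were seen, in 10 relations. At steady state (10 libraries) it correlated with all 5 lists by r and with the alveolar type 2 list alone by rho. With that list it had r = 0.854 and rho = 0.964 (permutation test, adjusted p = 0.00297 and 0.000267). Without the 2 libraries farthest from the median of that list, r was 0.814 and rho 0.929 (n = 8, permutation test, adjusted p = 0.046 and 0.00693). With the leukocyte list r was 0.788 and rho 0.576 (permutation test, adjusted p = 0.0146 and 0.119), and without the 2 farthest libraries r was 0.344. With the B cell list r was 0.864 and rho 0.636 (permutation test, adjusted p = 0.00752 and 0.09), and 0.531 and 0.310 without the 2 farthest. With the dendritic cell list r was 0.664 and rho 0.382 (permutation test, adjusted p = 0.0382 and 0.309), and r was 0.394 without them. With the alveolar type 1 list r was -0.747 and rho -0.564 (permutation test, adjusted p = 0.0192 and 0.119), and r was -0.595 without them. After HDM (12 libraries) the mean correlated with the leukocyte list (r = 0.980, rho = 0.979) and the dendritic cell list (r = 0.970, rho = 0.944), with adjusted p = 5e-05 for each r in the permutation test, and without the 2 farthest libraries r was 0.963 and 0.982. With the alveolar type 2 list after HDM, r was 0.327 and rho 0.014 (permutation test, adjusted p = 0.301 and 0.974), and without the 2 farthest libraries both turned negative, at -0.723 and -0.697 (permutation test, adjusted p = 0.0489 and 0.0511). These 2 libraries were AhR-/- replicates 3 and 4. Without that pair, r with the leukocyte list was 0.963 and with the dendritic cell list 0.959 (permutation test, adjusted p = 0.000125 and 5e-05 over 5 relations). With the B cell list r was 0.618 and rho 0.594 (permutation test, adjusted p = 0.0382 and 0.09), r was 0.631 and rho 0.746 without the 2 libraries farthest in that list (permutation test, adjusted p = 0.0712 and 0.0433), and r was 0.238 (adjusted p = 0.509, permutation test) without replicates 3 and 4. With the alveolar type 1 list r was -0.689 and rho -0.692 (permutation test, adjusted p = 0.0192 and 0.0378), r was -0.669 without the 2 farthest (adjusted p = 0.0679, permutation test), and r was -0.377 (adjusted p = 0.354, permutation test) without replicates 3 and 4. The differences between these correlations were not tested.

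RFX, NF-Y and CREB subunits seat Ciita on DNA. Of 7 such subunits (Rfx5, Rfxap, Rfxank, Nfya, Nfyb, Nfyc and Creb1), 1 rose after HDM in WT, Nfya, a subunit of NF-Y, from 1.68 to 9.43 CPM on average (adjusted p = 1.3e-05, edgeR), where 19% of all genes were called higher. The median of the 7 was 0.14. Between AhR-/- and WT after HDM, Nfya fell by 1.27 on the log2 scale (adjusted p = 0.0261) and Rfxap, an RFX subunit, rose by 1.51 (adjusted p = 0.0359, edgeR), 2 of 7 where 22.1% of all genes were called and 9.22% were called higher. The other 5 did not pass. Nfya was at -1.22 and Rfxap at 1.53 without AhR-/- replicates 3 and 4 (adjusted p = 0.202 and 0.210, edgeR).

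Of 8 genes of the interferon gamma input, 4 rose after HDM in WT, the kinase Jak2 by 3.42, its inhibitor Socs1 by 3.24, the transcription factor Irf1 by 1.49 and the receptor chain Ifngr1 by 1.38 on the log2 scale, where 19% of all genes were called higher. Between AhR-/- and WT after HDM, Socs1 fell by 2.06 and Jak1 by 0.90 (adjusted p = 0.0313 and 0.0445, edgeR), and the other 6 did not pass, where 12.9% of all genes were called lower. The changes of Socs1 and Jak1 were -1.52 and -0.79 without AhR-/- replicates 3 and 4 (adjusted p = 0.214 and 0.303, edgeR).

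Of the 8 antigen-processing proteases and related genes tested, 4 rose and 3 fell after HDM in WT (19% and 19.4% of all genes). Ctss, the cathepsin that trims the invariant chain in professional class II cells, rose by 5.67 and Ctsz by 3.00, while Ctsl, the cathepsin of thymic epithelium with that role, fell by 2.53 and Lgmn, the asparagine endopeptidase, by 1.44 on the log2 scale. Between AhR-/- and WT after HDM, Lgmn and Ctsl rose by 1.14 and 1.67 (9.22% of all genes were called higher) and Ctsz fell by 1.50 (12.9% lower), and Ctss had a log2 fold change of -1.77 (adjusted p = 0.157, edgeR). Leaving out AhR-/- replicates 3 and 4 gave 0.83 for Lgmn, 1.34 for Ctsl and -0.95 for Ctsz, and none passed.

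Of 9 genes for turnover of class II and for costimulation, 8 rose after HDM in WT, where 19% of all genes were called higher. Among them were Cd86 (6.97), Cd83 (6.87), Cd40 (6.34) and Cd80 (4.32). Marchf8, a ligase that removes class II and CD86 from the surface in several cells, fell (adjusted p = 0.000408, edgeR). Between AhR-/- and WT after HDM 7 of the 9 fell, where 12.9% of all genes were called lower. Those of lowest p were Cd40 (-3.11), Icosl (-2.94), Cd80 (-2.16) and Cd274 (-2.19), with the edgeR adjusted p from 0.0261 to 0.0362 for these. Once AhR-/- replicates 3 and 4 were left out, 0 of the 9 passed, 3 had an unadjusted p under 0.05 in the lower direction (9.6% of all genes), and the values of these 4 were -2.53, -2.32, -1.66 and -1.75. H2-Eb2 rose by 4.07 after HDM in WT and had a log2 fold change of -1.46 between AhR-/- and WT after HDM (adjusted p = 0.0749, edgeR).

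Over all 22 libraries, the protein-coding genes whose rank order was most like the mean of the 4 main class II genes were Bcl2a1b (rho = 0.981), an inhibitor of apoptosis of blood cells, Pmaip1 (0.975), Spc25 (0.974), Eps8 (0.970) and Clic1 (0.967), of 16059 genes compared. Both states enter these values, so that the difference between states weighs in them, and within the steady-state libraries the rho of these 5 was 0.697 to 0.875. Ptprc ranked 88 (rho 0.945), with rho of 0.515 at steady state and 0.979 after HDM. Sftpc, the surfactant gene of alveolar type 2 cells, had rho of 0.915 at steady state and -0.322 after HDM.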

How the data were processed

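RNA of sorted lung ECs was sequenced by the authors after template-switch cDNA amplification. The deposited values are counts, whole reads per gene without normalization, which the authors made by trimming, mapping to mm10 with GSNAP and counting with featureCounts 2.0.0, and treatment of strand and multiply mapped reads is not given in the sources used here.

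Genes were matched to GENCODE M21 (54147 of 54373) and the 21793 protein-coding genes were tested, filtered with filterByExpr (minimum count 10, minimum total 15), TMM-normalized and fitted with glmQLFit (robust) and glmQLFTest in edgeR 4.0.16 (R 4.3.3, limma 3.58.1), with 15547 genes at steady state, 14161 after HDM and 16639 over both tables. Adjusted p-values are Benjamini-Hochberg over all genes tested, with 0.05 as the threshold. Fold changes between states and interactions come from 1 fit over both tables. CPM values use TMM library sizes over both tables, log2 values a prior count of 1, and per-kilobase values the summed exon length. On these sizes 3 counts correspond to 0.107 to 1.36 CPM. Permutation tests used 100000 resamples, with 1e-05 as the smallest p they can give, or all arrangements where called exact.

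Alternatives were the likelihood ratio test, no filter, RLE, DESeq2 1.42.0, limma voom with sample weights, all gene classes, no dominant predicted genes, the replicate number as a block, Ptprc as a covariate, an absolute log2 fold change of 1, the compared groups alone, and libraries left out. The main edgeR fits were also run on simulated counts with known changes and a fixed spread for all genes. This checks the code and not the calls made here. The members, gene lists and tests were chosen with earlier results of these data known. Named genes are the 10 members, Ptprc and Epcam, at most 4 genes of lowest p per list and comparison, the top or near-absent markers and the 5 genes of highest rho with the class II mean. Ratios to Ptprc, correlations with marker lists and the lists without AhR-/- HDM replicates 3 and 4 were added after seeing the data. Promoters are those of the RefSeq table.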

Additional observations from a re-analysis of the deposited data

Results flagged for a closer look

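Ifi30, the lysosomal thiol reductase that opens disulfide bonds of antigens before class II loading, is listed as a processed transcript in the annotation used and so stood outside the protein-coding genes tested. It was at 8.02 CPM on average in the WT libraries at steady state and in the 4 WT libraries of the HDM table at 557 ± 303 (SD), with 61.8 ± 53.6 in the HDM libraries labelled AhR-/- (103.7 and 112 in replicates 1 and 2, 15.9 and 15.0 in replicates 3 and 4) and 358 ± 315 in those labelled CYP1B1-/-. Over 44 sets of 4 libraries, the members and Ptprc held 0 libraries set apart from the rest of their group by Dixon's criterion, where chance gives about 2.2 (1 in 20).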

How the results depend on the processing

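The rise of the 10 genes after HDM kept its direction in each genotype under all alternatives run, and all 10 passed with each library left out in turn (lowest 10, highest 10) and under each other alternative except Ptprc as a covariate, where 8 passed in WT, 7 in AhR-/- and 6 in CYP1B1-/-. Between AhR-/- and WT after HDM, against 6 genes as reported, 10 passed with the likelihood ratio test, with DESeq2 and with limma voom, 9 with the compared groups alone (15.9% of all genes called lower), 6 with RLE (12.2%), without dominant predicted genes (10.4%) or with an absolute log2 fold change of 1 (10.9%), 4 with all gene classes (9.66%) and 2 with no filter (4.54%). With Ptprc as a covariate or without AhR-/- replicates 3 and 4, 0 passed. With single libraries left out, 0 to 6 passed. The interaction for AhR-/- had 0 genes as reported, 1 with DESeq2, 8 with limma voom and 0 to 0 with libraries left out. The other comparisons of genotypes stayed at 0 throughout, also with libraries left out. The correlations with Ptprc at steady state fell from 9 genes to 0 without the 2 farthest libraries.

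With the replicate number as a block, 0 genes passed between AhR-/- and WT after HDM (1 of all 14161 genes), 10 had an unadjusted p under 0.05 (20% of all genes lower), and no other count changed. Deviations of same-numbered libraries correlated at -0.362 to 0.765 after HDM (4 of 12 pairs above 0.1) and at -0.057 to 0.394 at steady state (4 of 8). Those of differently numbered libraries correlated at -0.841 to 0.669 (14 of 36) and at -0.3679 to 0.3205 (5 of 25). Whether the numbers pair the libraries was not tested. Single genes were followed through the alternatives in 5 comparisons (the 3 between states, AhR-/- and WT after HDM, CYP1B1-/- and WT at steady state). Of these, genes reversed in the last only, where Ciita (0.08 as reported) was at -0.47 with limma voom and at -0.34 to 0.44 with single libraries left out (-0.028 and -0.17 without WT replicate 3 or 4, -0.34 without CYP1B1-/- replicate 2), and H2-Ob (-1.37) was at 0.033 with Ptprc as a covariate. Of all values for single genes under alternatives, 832 kept their direction and side of the threshold, 70 lost and 15 gained a call, and 5 reversed. In the other comparisons medians were followed. Between CYP1B1-/- and WT after HDM the median of -0.33 was 0.0097 with Ptprc as a covariate and -0.53 to 0.025 with libraries left out, and for the CYP1B1-/- interaction the median of 0.85 was -0.17 with the covariate and 0.15 to 1.29 with libraries left out. The correlation with the alveolar type 2 list after HDM went from 0.327 to -0.723 without AhR-/- replicates 3 and 4. The causes were not tested. Depth limits H2-Oa at steady state and, after HDM, AhR-/- replicate 3, where 1 count is 0.455 CPM.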
